A study of Mus musculus with 24 samples.

Results

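The response of R6/2 skeletal muscle to the HSP90 inhibitor HSP990 was measured in 4 of the 24 polyA RNA libraries of the series, 2 from mice given HSP990 and 2 from mice given vehicle. R6/2 mice are a model of Huntington's disease that carries a transgene with exon 1 of the human HTT gene, an expanded CAG repeat and the human HTT promoter, so it is not restricted to muscle. Members were chosen by their labels and not by any measured value. All 4 mice were 12 weeks old R6/2 animals on a CBA x C57BL/6 F1 background, and quadriceps femoris was taken 4 h after dosing. The treated pair received 12 mg/kg HSP990 by oral gavage, and the other pair received the vehicle, which the labels describe only as 0.9% saline. Of 18669 genes in the count table, 13754 had at least 2 counts in at least 10 of the 24 libraries and were tested. The series crosses HSP90 inhibition and whole-body heat shock with wild type, R6/2 and Hsf1-/- mice, 2 mice in each of 12 groups. Wild type mice given HSP990 or vehicle, Hsf1-/- mice given HSP990 or vehicle, and R6/2 mice given heat shock (HS) or a control temperature serve below as comparison groups. The wild type mice and these R6/2 mice were 12 weeks old and the Hsf1-/- mice 8 weeks old, all on the same background and sampled 4 h after treatment. Heat shock held anaesthetised mice at 41.5 °C for 15 min, and the control mice were anaesthetised and held at 36.9 °C for 21 min.

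HSP90 is an abundant chaperone that folds and holds a defined set of client proteins, among them protein kinases and the steroid hormone receptors. The transcription factor HSF1 is kept inactive in unstressed cells by chaperones including HSP90, and when it is released it binds heat shock elements and transcribes the genes of HSP70, HSP90, their co-chaperones and small HSPs. The glucocorticoid receptor needs HSP90 to bind its hormone, and in skeletal muscle it drives genes of protein breakdown, of the circadian clock and of the response to fasting. Inhibitors of the HSP90 ATPase are therefore known both for inducing chaperone genes and for disabling HSP90 clients. The comparison below asks which transcripts rose and fell in the muscle of a Huntington's disease model under such an inhibitor.

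The vehicle libraries held 35168663 and 30062349 counts and the HSP990 libraries 30894258 and 34766319. Muscle fibre markers, among them creatine kinase and the fast myosins, summed to 52540 and 58330 CPM (a count divided by the TMM-scaled library size) in the vehicle libraries and to 96760 and 58110 CPM in the HSP990 libraries, so HSP990 replicate 1 stood apart from the other 3. The 20 most abundant genes took 21.92% of the counts of that library and 14.66% to 15.77% in the other libraries of the treatment and vehicle pairs. Of 7 skin and gland markers in the count table, 2, Krt5 and Krt14, were at 0 in all 4 libraries. The 7 summed to 2.283 and 2.979 CPM under vehicle and to 2.325 and 3.358 CPM under HSP990. In bulk muscle, fewer cells of a type and less RNA per cell cannot be told apart. Many calls rested on 1 mouse, since leaving out vehicle replicate 2 lowered the number of genes called from 197 to 50, leaving out HSP990 replicate 1 lowered it to 61 and leaving out HSP990 replicate 2 lowered it to 75.

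HSP990 raised 65 genes and lowered 132 in R6/2 muscle (edgeR quasi-likelihood test, Benjamini-Hochberg adjusted p below 0.05), which is 0.473% and 0.96% of the genes tested and 1.43% together. The rises ran from 0.43 to 6.97 on the log2 scale with a median of 1.22, and 46 of the 65 were beyond 1. The falls ran from −6.88 to −0.47 with a median of −1.51, the lowest resting on 2 counts under HSP990, and 116 of the 132 were beyond −1. The largest rises were of inducible HSP70 and HSP90 genes, and the falls included targets of the glucocorticoid receptor. Of the 65 rises, 27 were called again when each of the 4 mice was left out in turn, whereas 10 of the 132 falls were. Vehicle replicate 2 was above vehicle replicate 1 in 110 of the 132 falls. The 2 groups did not overlap in any of the 65 rises or 132 falls. Lack of overlap in a called gene below therefore adds nothing to its call. The fits without a mouse still took the spread from all 12 groups. Fitted on the 4 R6/2 libraries alone, edgeR called 7 genes higher and 1 lower. The median change over all genes tested was 0.01, and 51.7% of genes had a positive change.

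**Figure D1:**
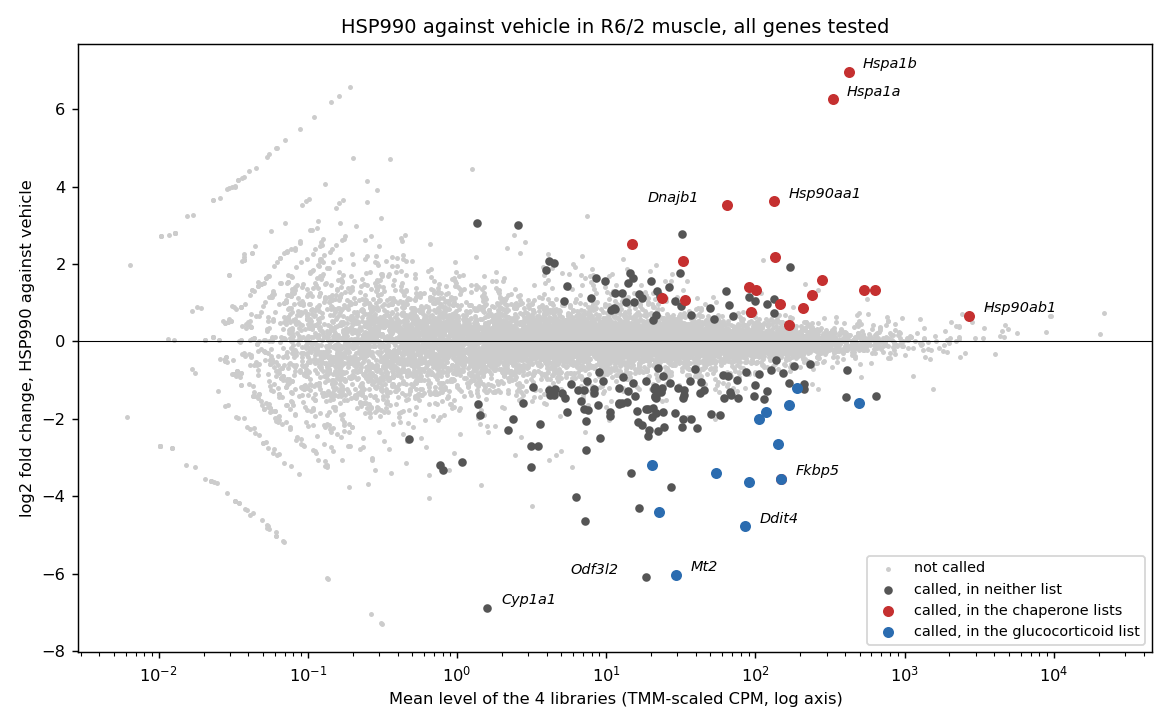
Mean level of each of the 13754 genes over the 4 R6/2 libraries (CPM, log axis) against its change under HSP990 (log2 fold change), with called chaperone genes in red, called glucocorticoid genes in blue (Fkbp5, in both lists, is drawn blue), other called genes in dark grey and the rest in light grey. The red points rise to 6.97 for Hspa1b, and every blue point lies below 0.

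Across 6 lists of chaperones and co-chaperones, 96 different genes were tested, of which 20 rose and 1 fell, against 0.473% and 0.96% of all genes. The change was positive in 69 of the 96, with a median of 0.14 beside 0.01 for all genes. Without vehicle replicate 2, 13 of the 96 rose. Levels below are CPM after TMM scaling, and changes are log2 fold changes of HSP990 over vehicle.

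The HSP70 machinery gave the largest changes, with 6 of 19 members called higher and none lower. Hspa1b, an inducible cytosolic HSP70 (mm9 chr17:35093381-35096183), was at 8.46 and 4.78 CPM under vehicle and at 739 and 932 CPM under HSP990. Its mean moved from 6.62 ± 2.6 to 835 ± 136 CPM (SD, n = 2), a log2 change of 6.97 ± 0.56 (SE, edgeR adjusted p = 2.7e-06). Hspa1a (mm9 chr17:35106144-35109069), the neighbouring and nearly identical HSP70 gene, was at 11.6 and 5.37 CPM under vehicle and at 573 and 725 CPM under HSP990, a change of 6.26. Because the transcripts of Hspa1a and Hspa1b are near copies, reads may have been divided between them, and the split between the genes is uncertain. Neither gene overlapped between the groups, which held for all 65 rises.

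Other members of the HSP70 system rose from higher starting levels. Hspa4l, an HSP110-type nucleotide exchange factor, was at 13.4 and 11.9 CPM under vehicle and at 49.9 and 56.3 CPM under HSP990 (log2 change 2.07, edgeR adjusted p = 2.2e-05). Hsph1, the HSP110 exchange factor, moved from 137 and 139 CPM to 360 and 475 CPM (1.60). Bag3, a co-chaperone that links HSP70 to selective autophagy and is needed in contracting muscle, moved from 322 and 286 CPM to 622 and 893 CPM (1.32). All of these were called without each mouse. Hspa1l, another gene of the Hspa1 cluster, was at 23.1 and 20.3 CPM under vehicle and at 35.9 and 54.9 CPM under HSP990 (1.07), and its edgeR adjusted p of 0.014 became 0.19 without vehicle replicate 2 or HSP990 replicate 2. Hspa8, the constitutive HSP70, was at 287 and 111 CPM under vehicle and at 83.3 and 334 CPM under HSP990, so its groups overlapped. Hspa8 stands outside the naming rule and was chosen after its values were seen.

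Of 29 HSP90 genes and co-chaperones, 8 rose and 1 fell. Hsp90aa1, the inducible HSP90 gene (mm9 chr12:111928815-111940938), was at 22.8 and 17.1 CPM under vehicle and at 194 and 298 CPM under HSP990, a log2 change of 3.62 ± 0.26 (SE, edgeR adjusted p = 1.3e-06). Hsp90ab1, the constitutive HSP90 gene, moved from 2060 and 2090 CPM to 2930 and 3660 CPM, a change of 0.67. Its edgeR adjusted p of 0.019 rose to 0.2 without HSP990 replicate 2, to 0.17 without vehicle replicate 2 and to 0.098 without vehicle replicate 1. Both HSP90 genes therefore lay higher under HSP990 in every library, by very different amounts. Hsp90aa1 has 2 near-identical copies in the mm9 genome sequence, and Hspb1, Hspd1 and Hspe1, given below, have 1 each. The counts of these 4 genes may share reads with the copies.

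The co-chaperones of HSP90 rose by smaller amounts. Unc45b, the muscle chaperone that folds the myosin head together with HSP90, was at 338 and 381 CPM under vehicle and at 915 and 887 CPM under HSP990 (log2 change 1.33 ± 0.13, edgeR adjusted p = 2.6e-05). Ahsa2 and Ahsa1, activators of the HSP90 ATPase, changed by 1.33 and 0.97. Stip1, the adaptor that passes clients from HSP70 to HSP90, changed by 1.21, with 146 and 141 CPM under vehicle and 296 and 368 CPM under HSP990. Chordc1, a zinc-binding co-chaperone, was at 54 and 45.4 CPM under vehicle and at 119 and 145 CPM under HSP990 (1.41), and its edgeR adjusted p of 0.0096 became 0.16 without vehicle replicate 2 and 0.091 without HSP990 replicate 2. Fkbp4, an immunophilin of steroid receptor complexes, changed by 0.87, whereas Fkbp5, the immunophilin that is itself a glucocorticoid receptor target, fell by 3.54. Ahsa1 and Fkbp4 complete the count of the list and were named after their values were seen.

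J-domain proteins hand substrates to HSP70, and 2 of 12 rose. Dnajb1 (mm9 chr8:86132074-86135801) moved from 11.4 and 9.33 CPM to 94.9 and 143 CPM, a log2 change of 3.52 ± 0.32 (SE, edgeR adjusted p = 1.5e-05). Dnaja1 moved from 4.83 and 4.16 CPM to 21.3 and 29.8 CPM (2.51, edgeR adjusted p = 1.3e-06). Among 6 small HSPs, which bind unfolding proteins without ATP, Hspb1 rose, from 58.4 and 39.6 CPM to 198 and 249 CPM (2.19 ± 0.4). The edgeR adjusted p of Hspb1, 0.0096, became 0.17 without vehicle replicate 2 and 0.072 without HSP990 replicate 2. Cryab, the small HSP most abundant in muscle, was at 832 and 448 CPM under vehicle and at 471 and 1240 CPM under HSP990, so its groups overlapped (0.42, edgeR adjusted p = 0.85).

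The chaperones of mitochondria and the cytosolic chaperonin moved little or not detectably. Of 15 mitochondrial chaperones and proteases, the partner genes Hspd1 and Hspe1 (HSP60 and HSP10) rose. Hspd1 was at 74.7 and 64.5 CPM under vehicle and at 116 and 120 CPM under HSP990 (0.76 ± 0.12, edgeR adjusted p = 0.0033, and 0.091 without vehicle replicate 2). Hspe1 was at 18 and 11.6 CPM under vehicle and at 30.1 and 34.4 CPM under HSP990 (1.12 ± 0.19, edgeR adjusted p = 0.0051, and 0.11 without vehicle replicate 2). Of 15 subunits of the CCT chaperonin and prefoldin, which fold actin and tubulin, Cct6a alone was called (0.43, edgeR adjusted p = 0.045), and that call was lost without any 1 of the mice. Tcp1, another CCT subunit, was at 241 and 222 CPM under vehicle and at 221 and 242 CPM under HSP990.

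No member of 24 chaperones and sensors of the endoplasmic reticulum passed the test, and their median change was 0.04. None of 5 heat shock factors passed it either. Hsf1 itself was at 51.4 and 48.2 CPM under vehicle and at 50.6 and 45.3 CPM under HSP990 (−0.05 ± 0.13, edgeR adjusted p = 0.97).

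**Figure D2:**
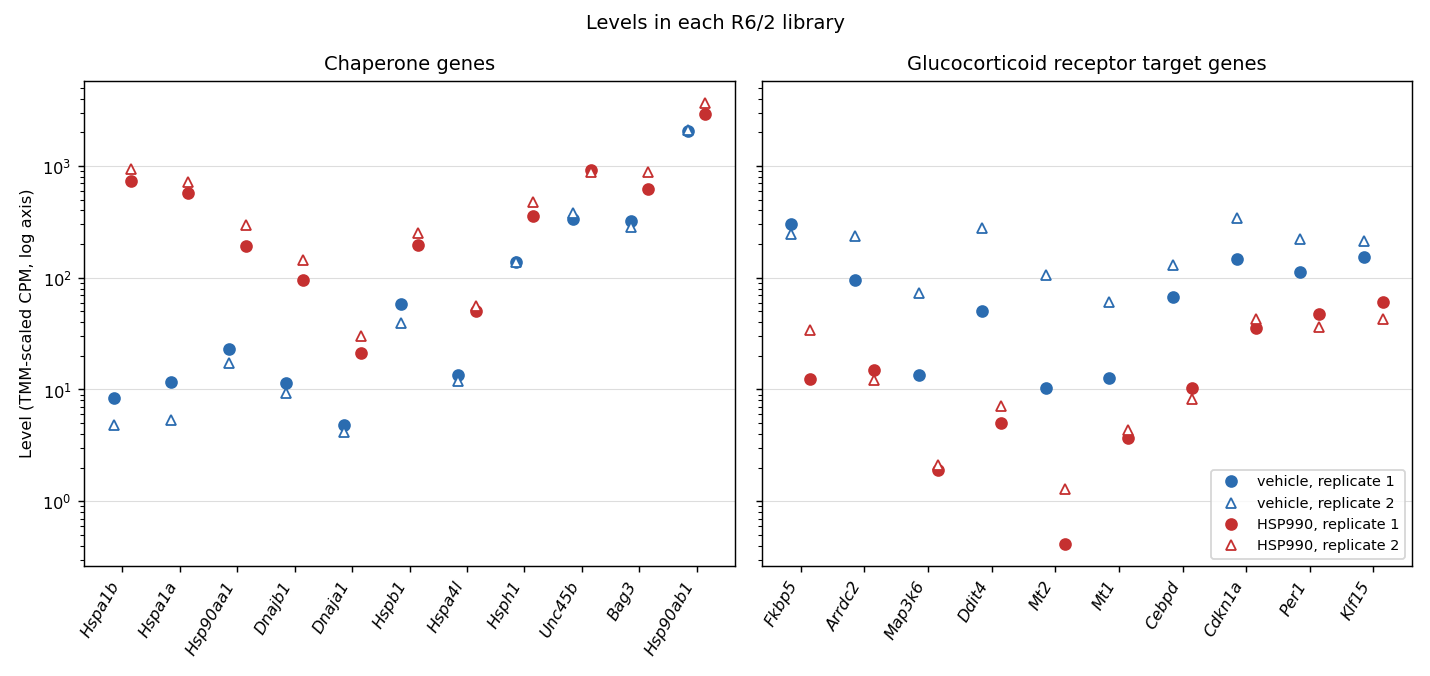
Level of chaperone genes (left) and of glucocorticoid receptor targets (right) in each R6/2 library (CPM, log axis), blue for vehicle, red for HSP990, circles for replicate 1 and open triangles for replicate 2. The red points of each chaperone gene lie above the blue ones, by a wide gap for Hspa1b and a narrow one for Hsp90ab1, and the order is turned for each gene on the right, where the 2 vehicle mice also differ.

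The sequences of a few promoters are shown because chaperone genes lead the rises and their known regulator, HSF1, binds alternating GAA and TTC units spaced by 2 bases. Promoters were read from RefSeq on GRCm38.p6, a later build than the mm9 of the counts, from 250 bases before to 50 bases after the start, and matched 55 of the 65 rises, 110 of the 132 falls and 10838 of the genes tested. A run of at least 3 units lay in 4 of 55 rises (7.27%), in 0 of 110 falls and in 64 of 10838 tested genes (0.591%), and the 4 were Hsph1, Chordc1, Hspe1 and Hspd1. At least 4 units lay in 3 of the 55 rises and in 6 of all 10838 (0.0554%). The motif is its own reverse complement, so 1 search covered both strands. Hspd1 and Hspe1 are divergent genes with 1 shared element of 4 units, which the counts above hold for both genes. It is printed on the strand of each gene with the units in capitals.
Hspd1, chr1:55088039-55088096, minus strand: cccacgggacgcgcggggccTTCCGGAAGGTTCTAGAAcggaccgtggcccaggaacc
Hspe1, chr1:55088039-55088096, plus strand: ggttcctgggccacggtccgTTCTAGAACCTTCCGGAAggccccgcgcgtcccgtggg

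A shorter pair of units, looked at after the data were seen, lay in 11 of the 18 chaperone rises with a promoter (61.1%), in 6 of 37 other rises (16.2%), in 17 of 110 falls (15.5%) and in 1513 of 10838 tested genes. Hspa1a, Hspa1b, Dnaja1 and Hspb1 are in this class, and a pair of each is printed in capitals with 20 bases on each side. Hspb1 holds a further pair, 110 to 117 bases before the start, which stands in lower case at the beginning of its printed stretch. In the 250 bases before the start, Hspa1a and Hspa1b were identical at 247 positions (98.8%), so the stretch shown for one has the same letters as that of the other.
Hspa1a, chr17:34972233-34972280, minus strand: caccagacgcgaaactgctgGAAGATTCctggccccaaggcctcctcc
Dnaja1, chr4:40722324-40722371, plus strand: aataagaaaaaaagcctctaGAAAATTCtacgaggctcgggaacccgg
Hspb1, chr5:135887802-135887849, plus strand: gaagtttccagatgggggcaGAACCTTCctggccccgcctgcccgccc
These matches describe the letters of the windows and not binding in these mice.

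Rises outside the chaperone lists included genes of collagen folding. Over all genes tested, 0.473% were called higher. Serpinh1, the collagen chaperone HSP47 of the endoplasmic reticulum (mm9 chr7:106493885-106501740), was at 78 and 64.9 CPM under vehicle and at 273 and 270 CPM under HSP990 (1.93 ± 0.27, edgeR adjusted p = 0.001). P4ha1, the catalytic subunit of collagen prolyl 4-hydroxylase and a known HIF-1 target, moved from 38.6 and 34.7 CPM to 88.4 and 91.9 CPM (1.30 ± 0.15, edgeR adjusted p = 0.00017). They were 2 of 18 genes of collagen folding and modification, and both were called without each mouse. None of 15 collagen chains passed the test, and the median of the chains was 0.00.

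Nle1, a factor of ribosome biogenesis (mm9 chr11:82714270-82721913), rose as strongly as the J-domain genes. It was at 8.56 and 7.85 CPM under vehicle and at 46.9 and 66 CPM under HSP990 (2.78 ± 0.22, edgeR adjusted p = 2.7e-06). Its exons overlap those of Fndc8 on the other strand, and Hspd1 with Hspe1, Dnaja1, Unc45b and Hspa1a also have overlaps on the other strand. How the counting treated strand is not given in the sources used here, so reads of such pairs may have been shared. Ankrd34a, an ankyrin repeat gene, rose from 2.36 and 1.16 CPM to 6.9 and 7.45 CPM (2.02) and was called without each mouse.

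Several low-level regulators were called on less even data. Gata3, a transcription factor, was at 0.163 and 0.418 CPM under vehicle and at 2.84 and 2.04 CPM under HSP990 (3.07). Nppc, the precursor of C-type natriuretic peptide, was at 0.387 and 0.738 CPM under vehicle and at 4.75 and 4.34 CPM under HSP990 (3.02). Both were above the vehicle mice in each treated mouse, and both lost their call without any 1 of the 4 mice. Hhex, a homeobox factor, changed by 2.08, Chek2, a DNA damage checkpoint kinase, by 1.84, and Tppp, a tubulin-binding protein, by 1.78. Their edgeR adjusted p became 0.17, 0.27 and 0.19 without vehicle replicate 2. Bhlhe40, a clock repressor, moved from 92.2 and 77.9 CPM to 224 and 137 CPM (1.09, edgeR adjusted p = 0.035, and 0.51 without HSP990 replicate 1).

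The list of the glucocorticoid receptor and its targets held more falls than any other list, with 13 of 27 tested members called lower and none higher, against 0.96% of all genes called lower. The change was negative in 23 of the 27, and the median was −1.58. The 2 vehicle mice differed among themselves in most of these genes, with replicate 2 the higher. Leaving out vehicle replicate 2 left 1 of the 27 called and a median of −0.84. Leaving out HSP990 replicate 1 or replicate 2 left 2 called in each case, and leaving out vehicle replicate 1 left 12.

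Fkbp5 (mm9 chr17:28536040-28654469) was at 301 and 246 CPM under vehicle and at 12.4 and 34.4 CPM under HSP990, a log2 change of −3.54 ± 0.69 (SE, edgeR adjusted p = 0.013). Its vehicle mice were close to each other and far above both treated mice, and its adjusted p became 0.054 without vehicle replicate 2 and 0.2 without HSP990 replicate 1. Klf15, a glucocorticoid-induced factor of amino acid catabolism (mm9 chr6:90412570-90425232), was at 153 and 215 CPM under vehicle and at 61.2 and 43 CPM under HSP990 (−1.82 ± 0.25, edgeR adjusted p = 0.00084, and 0.092 on the 4 R6/2 libraries alone). Klf15 kept its call without each mouse, and among the 13 it was the 1 that did.

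Ddit4, an inhibitor of mTORC1 also called REDD1 (mm9 chr10:59412423-59414518), differed widely between the vehicle mice. It was at 50.2 and 281 CPM under vehicle and at 4.99 and 7.09 CPM under HSP990 (−4.77 ± 0.93, edgeR adjusted p = 0.014). Map3k6, a stress kinase, was at 13.6 and 72.4 CPM under vehicle and at 1.91 and 2.11 CPM under HSP990 (−4.41). Mt2, a metallothionein that binds zinc and is induced by glucocorticoids, was at 10.3 and 105 CPM under vehicle and at 0.413 and 1.29 CPM under HSP990 (−6.03 ± 1.1). In these 3 genes, as in all 132 falls, both treated mice lay below both vehicle mice. The vehicle mice were several times apart.

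Arrdc2, an arrestin-domain gene, was at 96.2 and 237 CPM under vehicle and at 14.8 and 12.2 CPM under HSP990 (−3.62). Cebpd, a C/EBP transcription factor, was at 67.4 and 131 CPM under vehicle and at 10.3 and 8.3 CPM under HSP990 (−3.41, edgeR adjusted p = 0.0047), which became 0.058 without vehicle replicate 2. Cdkn1a, the cell cycle inhibitor p21, moved from 148 and 342 CPM to 35.2 and 42.5 CPM (−2.66). Per1, a clock gene with glucocorticoid control, moved from 112 and 224 CPM to 47.4 and 36 CPM (−2.01). The other called members were Mt1 (−3.18), the zinc finger factor Zbtb16 (−1.64), glutamine synthetase Glul (−1.58) and Tsc22d3 (−1.19), also called GILZ. Zbtb16, Glul and Tsc22d3 complete the count and were named after their values were seen.

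The glucocorticoid receptor gene Nr3c1 did not fall with its targets. It was at 202 and 175 CPM under vehicle and at 259 and 225 CPM under HSP990 (0.36 ± 0.16, edgeR adjusted p = 0.49). Pdk4, a muscle target of both the receptor and fasting, was at 1660 and 2720 CPM under vehicle and at 1230 and 643 CPM under HSP990 (−1.22, edgeR adjusted p = 0.25), and Sgk1 was at 39.7 and 53.1 CPM under vehicle and at 30.6 and 20.4 CPM under HSP990 (−0.86, edgeR adjusted p = 0.24). Neither passed the test, and both were chosen after their values were seen.

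**Figure D3:**
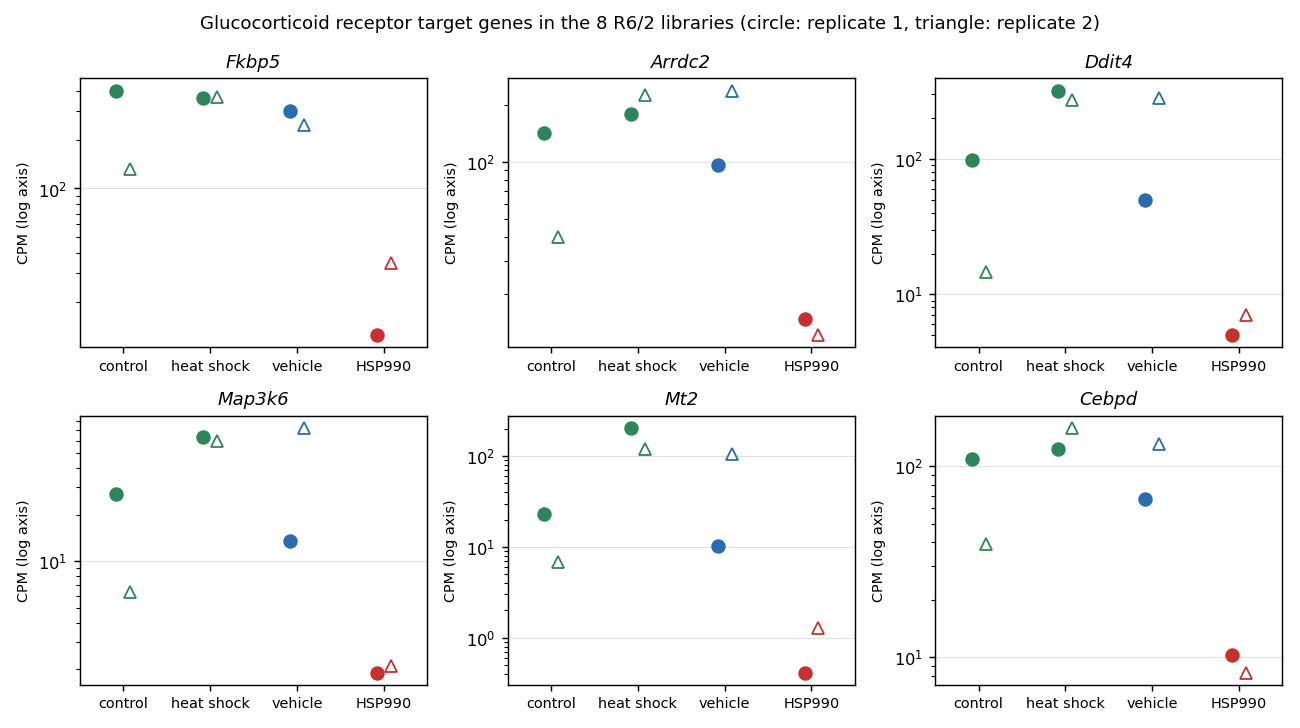
Levels of 6 glucocorticoid receptor targets in the 8 R6/2 libraries (CPM, log axis), as control temperature, heat shock, vehicle and HSP990 pairs with 1 point per mouse. The HSP990 points are the lowest of the 4 pairs for each gene, and vehicle and control pairs span up to a several-fold range within a pair, as for Ddit4 at 50.2 and 281 CPM under vehicle.

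Glucocorticoid response elements were searched as AGAACA, 3 bases, TGTTCT with at most 2 mismatches in the 12 fixed bases, a motif that is its own reverse complement. They lay in 9 of 110 falls with a promoter (8.18%), in 1 of 55 rises (1.82%) and in 144 of 10838 tested genes (1.33%). None of the 11 called genes of the glucocorticoid list with a promoter held one in this window. Among the named falls with a match, that of Trim63 had 1 mismatch. Slc10a6, Fam107a and Bbox1, among the largest falls, held matches with 2 mismatches, and that of Bbox1 is not printed. The matched 15 bases are in capitals, on GRCm38.p6.
Trim63, chr4:134314891-134314945, plus strand: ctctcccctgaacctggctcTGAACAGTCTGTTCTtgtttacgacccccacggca
Slc10a6, chr5:103629533-103629587, minus strand: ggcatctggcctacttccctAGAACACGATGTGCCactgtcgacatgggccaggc
Fam107a, chr14:8309864-8309918, minus strand: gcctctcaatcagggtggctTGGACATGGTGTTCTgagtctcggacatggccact

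Fam107a and Slc10a6 were among the largest falls outside the glucocorticoid list. Fam107a, an actin-associated gene, was at 17.5 and 45.9 CPM under vehicle and at 1.68 and 1.5 CPM under HSP990 (−4.31 ± 0.54, edgeR adjusted p = 0.00029), and it was called without each mouse. Slc10a6, a transporter of sulfated steroids, moved from 4.08 and 23.8 CPM to 0.336 and 0.751 CPM (−4.64). Odf3l2 moved from 12.1 and 60.9 CPM to 0.233 and 0.792 CPM (−6.09), Depp1, a FOXO target, from 30.8 and 70.6 CPM to 4.88 and 2.67 CPM (−3.75) and Doc2b, a calcium sensor of exocytosis, from 8.66 and 14.9 CPM to 0.775 and 0.667 CPM (−4.03). Sphk1, a sphingosine kinase, fell by 3.33, Inmt, a methyltransferase, by 3.41 and Bbox1, the last enzyme of carnitine synthesis, by 3.25. Vehicle replicate 2 was the higher vehicle mouse for Fam107a, Slc10a6, Odf3l2, Depp1 and Doc2b, and replicate 1 was for Inmt (42.6 and 11 CPM) and Bbox1 (6.56 and 4.75 CPM). Apart from Fam107a, these genes lost their call without either HSP990 mouse. Slc10a6, Odf3l2, Depp1, Doc2b, Sphk1 and Bbox1 also lost it without vehicle replicate 2, and Inmt and Bbox1 without vehicle replicate 1, with edgeR adjusted p of up to 0.42.

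Of 21 genes of muscle atrophy, 4 were called lower and none higher, and 2 of the 21 had a positive change. Over all genes tested, 0.96% were called lower. The called genes were Klf15 and Cdkn1a, given above with the glucocorticoid targets, and Gadd45a and Trim63. Leaving out vehicle replicate 2 or HSP990 replicate 1 left 1 of them called, leaving out HSP990 replicate 2 left 2, and Klf15 kept its call without each mouse. Trim63, the muscle ubiquitin ligase MuRF1 (mm9 chr4:133871035-133885544), was at 366 and 817 CPM under vehicle and at 237 and 200 CPM under HSP990 (−1.43 ± 0.35, edgeR adjusted p = 0.049), and its adjusted p rose to 0.57 without vehicle replicate 2. Gadd45a, a stress gene raised in denervated muscle, moved from 87.3 and 114 CPM to 36.9 and 63.9 CPM (−1.0, edgeR adjusted p = 0.022, and 0.29 without HSP990 replicate 1). Fbxo32, the ubiquitin ligase atrogin-1 and chosen after its values were seen, was at 255 and 336 CPM under vehicle and at 273 and 172 CPM under HSP990, so its groups overlapped.

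The aryl hydrocarbon receptor and HIF-1α are other known HSP90 clients. Of 7 aryl hydrocarbon receptor targets, 3 were called lower and none higher, against 0.96% of all genes called lower. Leaving out either HSP990 mouse left 0 called and leaving out either vehicle mouse left 1. Cyp1a1, the classic target (mm9 chr9:57545420-57551629), had 292 and 13 counts under vehicle and 0 and 2 counts under HSP990, so the vehicle level rested mainly on replicate 1. Scaled for library size, the ratio of vehicle to HSP990 counts was 147, with a 95% interval of 40.4 to 1220 that covers counting error only, and the edgeR adjusted p of 0.028 became 0.43 without vehicle replicate 1. Cyp1b1 moved from 6.15 and 5.64 CPM to 1.01 and 1.67 CPM (−2.13, edgeR adjusted p = 0.023) and lost its call without any 1 of the 4 mice. Tiparp, a feedback inhibitor of the receptor, moved from 64.4 and 127 CPM to 34.8 and 42.9 CPM (−1.30, edgeR adjusted p = 0.048, and 0.55 without vehicle replicate 2). The receptor gene Ahr was at 5.95 and 4.55 CPM under vehicle and at 5.92 and 6.65 CPM under HSP990 (0.26 ± 0.31). Of 18 HIF-1 targets, P4ha1 rose and none fell, and Hif1a was at 33.6 and 29.2 CPM under vehicle and at 38.8 and 37.9 CPM under HSP990 (0.29, edgeR adjusted p = 0.51).

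Cytokines and their receptors and regulators gave 5 falls and no rise among 35 members, against 0.96% of all genes called lower. Without vehicle replicate 2 or HSP990 replicate 1 none of the 35 was called lower, and without HSP990 replicate 2, 1 was. Nfkbia, the NF-kappaB inhibitor and also a glucocorticoid-induced gene, was at 19.8 and 60.1 CPM under vehicle and at 8.99 and 8.45 CPM under HSP990 (−2.20 ± 0.41, edgeR adjusted p = 0.0096, and 0.22 without vehicle replicate 2). The chemokine Ccl9 moved from 6.6 and 10.4 CPM to 2.33 and 2.48 CPM (−1.82 ± 0.29, edgeR adjusted p = 0.0031, and 0.063 without vehicle replicate 2). The receptor genes Il4ra (−1.86), Il1r1 (−1.42) and Osmr (−1.33) were the others, with edgeR adjusted p of 0.44, 0.18 and 0.42 without vehicle replicate 2. Macrophage markers summed to 148.1 and 120.8 CPM under vehicle and to 87.79 and 96.85 CPM under HSP990, 1 of 11 had a positive change, and Cd163 (−1.63) was called lower. Their part in the cytokine result was not tested.

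Endothelial regulators, matrix genes and growth factor receptors also held falls. Over all genes tested, 0.96% were called lower, and whether any of these lists exceeded that share was not tested. Klf2, a flow-induced factor of endothelium, moved from 39.3 and 66.5 CPM to 11.7 and 11 CPM (−2.22, edgeR adjusted p = 0.0042, and 0.075 without vehicle replicate 2), and Ednrb, an endothelin receptor, from 2.28 and 5 CPM to 0.956 and 0.542 CPM (−2.28, edgeR adjusted p = 0.022, and 0.29 without vehicle replicate 2). These were 2 of 21 genes of vessel growth and endothelium, and the endothelial markers summed to 507.1 and 480.9 CPM under vehicle and to 706.5 and 497 CPM under HSP990 with no marker called. Eln, the gene of elastin (mm9 chr5:135179651-135223111), was the called member of 21 non-collagen matrix genes, with 23.7 and 41.4 CPM under vehicle and 9.15 and 7.57 CPM under HSP990 (−1.96 ± 0.25, edgeR adjusted p = 0.00042). Timp4, an inhibitor of matrix proteases, moved from 41.3 and 23 CPM to 4.91 and 8.3 CPM (−2.28 ± 0.33, edgeR adjusted p = 0.0013). Fgfr3, a fibroblast growth factor receptor, moved from 8.01 and 17.7 CPM to 1.86 and 1.79 CPM (−2.81 ± 0.34, edgeR adjusted p = 0.00026). On the 4 R6/2 libraries alone, the edgeR adjusted p was 0.1 for Eln, 0.14 for Timp4 and 0.1 for Fgfr3. Eln, Timp4 and Fgfr3 were called without each mouse. Fgfr1 moved from 202 and 240 CPM to 146 and 141 CPM (−0.63, edgeR adjusted p = 0.041, and 0.38 without vehicle replicate 2), and the other 26 of 28 receptor tyrosine kinase genes did not pass the test. Maff, a small MAF factor, was the called member of 22 immediate early genes and moved from 8.03 and 22.7 CPM to 2.14 and 3.3 CPM (−2.49, edgeR adjusted p = 0.014, and 0.25 without vehicle replicate 2).

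Of the 47 pathway lists, 22 held no called gene. The 28 targets of ATF4 in the amino acid response held 1, Ddit4, and 20 aminoacyl-tRNA synthetases held none. No insulin and IGF pathway gene of 19, no NRF2 target of 19 and no gene of 26 of the respiratory chain was called. Of 18 fast fibre genes, none was called and all 18 had a positive change (median 0.46), with sums of 74690 and 85940 CPM under vehicle and 140000 and 84930 CPM under HSP990. Without HSP990 replicate 1 the fast fibre median was 0.11 and 15 were positive. Of 16 slow fibre genes none was called and none had a positive change (median −0.29), and without HSP990 replicate 2, 7 were positive. The interferon list had 25 of 25 members with a positive change (median 0.48), with sums of 229.2 and 278.7 CPM under vehicle and 342.1 and 381.9 CPM under HSP990, and 1 of them, Gbp2, was called (1.03, edgeR adjusted p = 0.049). Gbp2 lost its call without any 1 of the mice.

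**Figure D4:**
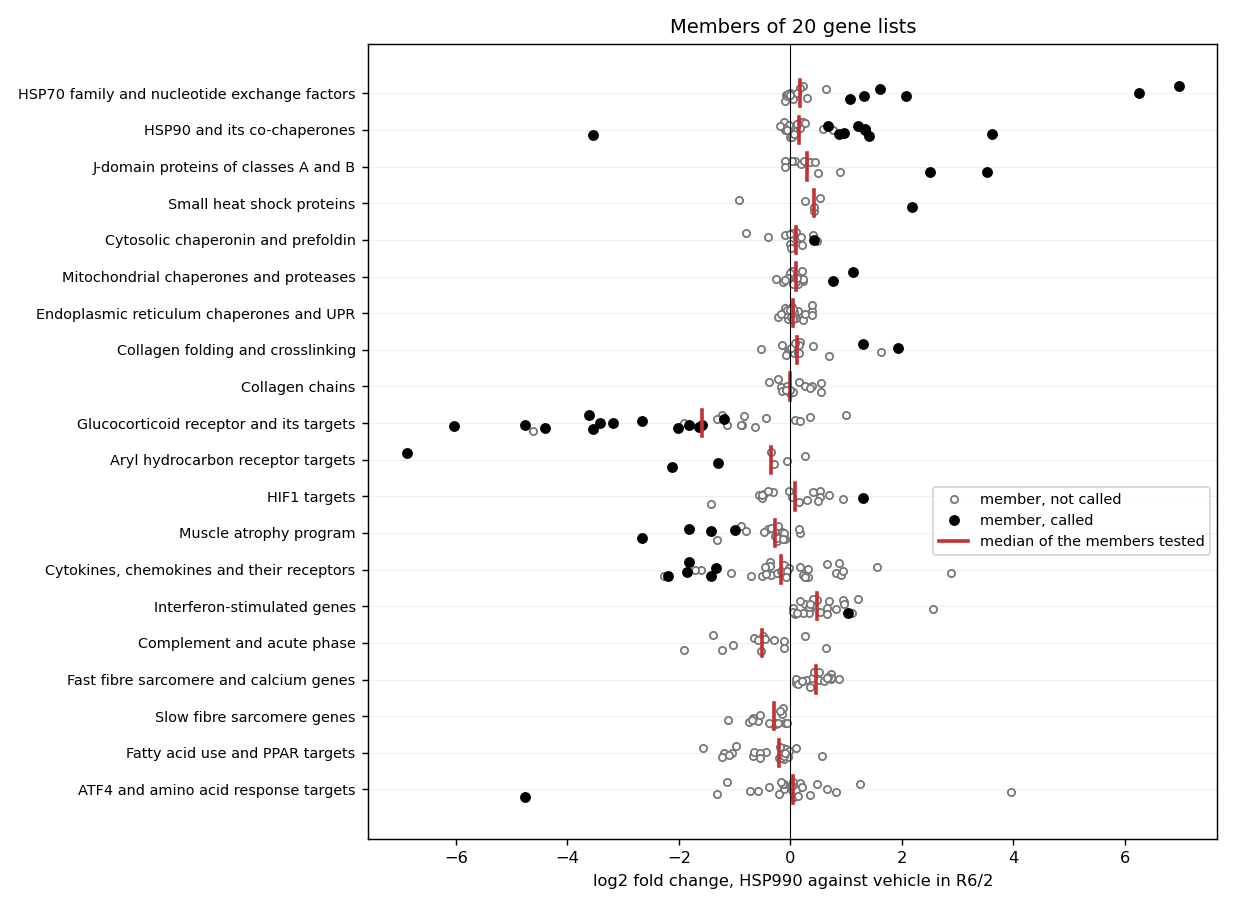
Change of every tested member of 20 gene lists (log2 fold change of HSP990 over vehicle), filled points for called members, open points for the rest and a red bar for the median. The glucocorticoid list has its median at −1.58, while the chaperone lists have medians near 0.1 to 0.4 with a few called members far to the right.

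Wild type mice of the same age and background received the same dose with their own vehicle mice. Of the 65 R6/2 rises, 50 (76.9%) were also called higher in wild type, where 199 genes (1.45%) were called higher, so the shared genes made up 25.1% of the wild type rises. Of the 132 R6/2 falls, 26 (19.7%) were also called lower in wild type, where 56 genes (0.407%) were called lower, so they made up 46.4% of the wild type falls. No gene was called in opposite directions. The median change of the 65 R6/2 rises was 1.22 in R6/2 and 1.54 in wild type, and of the 132 falls −1.51 in R6/2 and −0.74 in wild type. These medians are a description, since the genes were picked by their R6/2 value.

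The difference between the R6/2 and wild type responses, tested as an interaction over all genes, gave 0 called genes (0% of genes tested) by edgeR, with 981 genes at an unadjusted p below 0.05, 10 called genes without R6/2 vehicle replicate 1, and 49 and 92 called genes by DESeq2 with all libraries and with only the groups compared. Hsp90aa1 was at 13.4 and 12.7 CPM in wild type vehicle mice and at 464 and 386 CPM in wild type HSP990 mice, a change of 5.02 against 3.62 in R6/2 and a difference of −1.40 ± 0.33 (SE, edgeR adjusted p = 0.30). Hspa1b was at 21.4 and 16 CPM under vehicle and at 3160 and 2790 CPM under HSP990 in wild type. Its change was 7.31 in wild type against 6.97 in R6/2, a difference of −0.34 ± 0.62 (R6/2 minus wild type). Bag3 (−1.06 ± 0.24), Dnaja1 (−1.25 ± 0.25) and Nle1 (−1.65 ± 0.3) also had smaller changes in R6/2, each with an adjusted p of 0.30 by edgeR. Eln was at 21.4 and 26.9 CPM under vehicle and at 19.1 and 24.9 CPM under HSP990 in wild type. Its change was −0.14 in wild type against −1.96 in R6/2. That difference of −1.82 ± 0.35 (R6/2 minus wild type) did not pass the test (edgeR adjusted p = 0.30). Fkbp5 changed by −3.58 in wild type and by −3.54 in R6/2, a difference of 0.04 ± 0.89. Muscle fibre markers summed to 241800 and 237600 CPM in the wild type vehicle mice, several times the R6/2 sums, and the part of this difference in the comparison was not tested.

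The response of Hsf1-/- mice to HSP990 shows which changes were seen where the gene of HSF1 is deleted. Hsf1 was at 28.7 and 27.5 CPM in Hsf1-/- vehicle mice and at 21.1 and 27.6 CPM in Hsf1-/- HSP990 mice, below the R6/2 mice but not at 0. Genotype and age cannot be told apart in this comparison. The difference between the responses was called for 30 genes (0.218%), 19 higher (0.138%) and 11 lower (0.08%) in R6/2. With library size scaling, which moved the median difference of all genes to −0.22, the split was 11 and 15. The count was 51 without R6/2 vehicle replicate 1 and 50 without Hsf1-/- HSP990 replicate 2. Of the 19, 12 were in the chaperone lists and 18 were called in R6/2. The median change of the 19 was 1.56 in R6/2 and −0.06 in Hsf1-/-. These calls and medians are a description, since the 19 genes were picked by the difference. Hspa1b was at 4.14 and 2.66 CPM under vehicle and at 3.19 and 3.85 CPM under HSP990 in Hsf1-/- mice, so its change differed by 6.93 ± 0.73 (SE, edgeR adjusted p = 0.00011). Dnajb1 was at 8 and 9.13 CPM and at 8.8 and 6.96 CPM in the same mice, a difference of 3.64 ± 0.44, and Nle1 differed by 3.41 ± 0.31. Under HSP990 against vehicle in Hsf1-/- mice, 30 genes (0.218% of genes tested) were called. None of the 96 genes of the chaperone lists was among them, a count near that share.

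The 11 genes with a lower response in R6/2 were mostly genes that rose in Hsf1-/- mice. Of them, 10 were called there and none in R6/2, with medians of 3.24 in Hsf1-/- and 0.10 in R6/2. The 11 were also picked by the difference, so these values are a description. Trib3, a pseudokinase induced by ATF4, was at 1.04 and 2.57 CPM under vehicle and at 65.6 and 143 CPM under HSP990 in Hsf1-/- mice, and at 1.9, 1.77, 2.43 and 1.71 CPM in the R6/2 vehicle and HSP990 mice. Sesn2, an amino acid and stress sensor upstream of mTORC1, was at 4.1 and 3.78 CPM and at 57.2 and 92.4 CPM in Hsf1-/- mice, and at 5.28, 5.39, 6.77 and 9.91 CPM in R6/2 mice. The amino acid transporters Slc7a5, Slc1a4 and Slc7a1 differed by −6.29, −4.07 and −3.45. Trib3 and Sesn2 thus stayed below 10 CPM in all 4 R6/2 mice.

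In R6/2 mice, heat shock is the other treatment of the series, measured against R6/2 control mice of its own. It called 6 genes (0.0436%), and the difference between the HSP990 and heat shock responses was called for 224 genes (1.63%), 41 higher (0.298%) and 183 lower (1.33%) under HSP990. That count was 98 without control replicate 2, 108 without vehicle replicate 2, 124 without HSP990 replicate 2, 145 without heat shock replicate 1, 353 without vehicle replicate 1 and 454 without heat shock replicate 2. The heat shock and control mice were also anaesthetised, and the sum of 4 Y-linked genes was 173.2 to 191.4 CPM in the HSP990 and vehicle mice but 0 to 0.0881 CPM in the heat shock and control mice. Treatment, anaesthesia and sex therefore cannot be told apart in this comparison. Of the chaperone lists, 9 genes had a higher response to HSP990 and 1, Fkbp5, a lower one. Dnajb1 was at 10.2 and 11.6 CPM in control mice and at 7.88 and 9.02 CPM after heat shock, so its response differed by 3.89 ± 0.43 (SE, edgeR adjusted p = 0.00064). Hspa1b was at 8.94 and 2 CPM in control mice and at 124 and 106 CPM after heat shock, and its difference of 2.59 ± 0.64 did not pass the test (edgeR adjusted p = 0.051). Hsp90aa1 was at 19.8 and 11.2 CPM in control mice and at 50 and 47.7 CPM after heat shock, a difference of 1.97 ± 0.33. Unc45b (0.88) and Dnaja1 (1.51) also responded more to HSP990, and the call of Unc45b depended on single mice.

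Glucocorticoid targets went apart most widely between the treatments, with 15 of 27 called lower under HSP990 than under heat shock, against 1.33% of all genes. Their median difference was −2.76, beside 0.02 for all genes. Among these calls, those of Fkbp5, Arrdc2, Cdkn1a and Per1 depended on single mice, whereas those of Mt2, Ddit4, Map3k6, Mt1, Cebpd and Klf15 did not. Under heat shock itself 24 of the 27 had a positive change, with a median of 0.86 and none called. Mt2 was at 22.9 and 6.81 CPM in control mice and at 204 and 121 CPM after heat shock, and its response differed by −9.48 ± 1.4 (SE, edgeR adjusted p = 0.0026). Ddit4 was at 98.1 and 14.7 CPM in control mice and at 320 and 273 CPM after heat shock, a difference of −7.16 ± 1.2. Pnmt, the enzyme that makes adrenaline, and Tmem252 differed by −7.94 and −7.33, with heat shock levels of 8.4 and 8.79 CPM and of 23.5 and 8.3 CPM against control levels below 1 CPM. Pnmt was at 0.53 and 11.5 CPM under vehicle and at 0.336 and 0.292 CPM under HSP990. Tmem252 was at 0.978 and 13.8 CPM under vehicle and at 1.14 and 0.647 CPM under HSP990, so its groups overlapped. Neither fall under HSP990 was called (edgeR adjusted p = 0.075 and 0.076), and vehicle replicate 2 was the higher vehicle mouse for both. The call of Pnmt was lost without any of 4 mice, with an edgeR adjusted p of up to 0.13. Gata3 (4.1), Nppc (3.92) and the transcription factor gene Sall4 (4.5) had higher responses to HSP990 with calls that depended on single mice, and Ankrd34a (3.26) kept its call without each of the 8 mice.

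**Figure D5:**
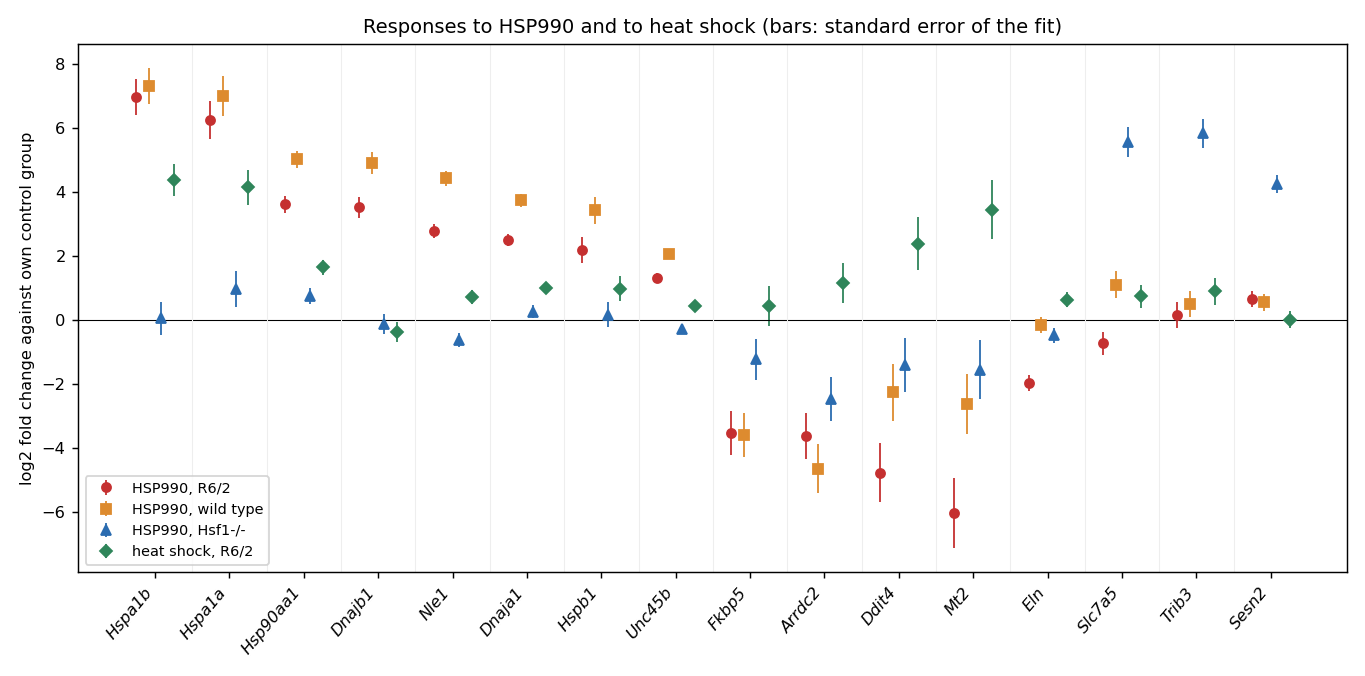
Change of 16 genes (log2 fold change with SE bars) under HSP990 in R6/2, wild type and Hsf1-/- mice and under heat shock in R6/2 mice. The chaperone genes and Nle1 lie between −0.63 and 0.96 in Hsf1-/- mice, Slc7a5, Trib3 and Sesn2 lie between 4.25 and 5.84 there, and Mt2 falls under HSP990 but rises by 3.45 under heat shock.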

How the data were processed

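The authors deposited a table of raw counts per gene for 24 libraries. Libraries were strand-specific, paired-end and made from polyA RNA, and reads were mapped with Bowtie to mm9. The counting program, its annotation and its use of strand are not given in the sources used here, and symbols and positions come from the files and annotation at hand. CPM values are those counts per TMM-scaled library size. Libraries were grouped by the GEO labels, and the methods describe 2 mice per group. Where nothing shows separate litters, the spread between mice is all that p-values measure.

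From the counts, genes that reached 2 counts in 10 or more libraries were fitted together (12 groups, 12 residual degrees of freedom) with edgeR 4.0.16 (TMM, quasi-likelihood test) in R 4.3.3, and called at a Benjamini-Hochberg adjusted p below 0.05. Changes and SEs are from this fit. An exact permutation test of 2 against 2 libraries cannot go below 0.333, so none was used. Alternatives were DESeq2 1.42.0 (the study's tool), other scaling and filters, a replicate block, only the groups compared, and each mouse left out. Near copies were found with minimap2 2.31-r1302 (at most 0.02 divergence over 50% of a transcript). The model was tested on simulated data.

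The members, gene lists and motifs were chosen with earlier results of these data known, so no list was tested. Genes were named as the study's qPCR panel, up to 6 called members of each list with the largest change, the 15 largest called rises and falls above 1 CPM without overlap, the 5 largest called differences in each direction of each interaction, and the receptors Nr3c1, Ahr and Hif1a. Promoter sequences are RefSeq's on GRCm38.p6.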

Additional observations from a re-analysis of the deposited data

Results flagged for a closer look

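The responses of R6/2 and Hsf1-/- mice to HSP990 differed for 30 genes by the edgeR interaction test. The differences in log2 change, R6/2 minus Hsf1-/-, were 6.93 for Hspa1b, 5.3 for Hspa1a, 3.64 for Dnajb1, 3.41 for Nle1 and 2.88 for Hsp90aa1. Each of these, like all 65 rises, was higher in both treated R6/2 mice than in their vehicle mice. The differences were −6.29 for Slc7a5, −5.67 for Trib3, −4.07 for Slc1a4, −3.6 for Sesn2 and −3.45 for Slc7a1, which rose in Hsf1-/- mice. All 10 were called without each of the 8 mice, with an edgeR adjusted p of at most 0.043. The R6/2 mice were 12 and the Hsf1-/- mice 8 weeks old, and genotype and age cannot be told apart.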

How the results depend on the processing

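The 197 genes called for HSP990 against vehicle stayed between 176 and 217 with other scaling, with no filter, with edgeR's own filter and with a replicate block (176), and all 65 rises and 132 falls were called by DESeq2 on all libraries, while DESeq2 on the groups compared lost Cct6a, Cyp1a1 and Inmt among the named genes. The count was 376 by DESeq2 on all libraries, 413 by DESeq2 on the groups compared, 8 by edgeR on those groups alone, and 50 to 228 with a mouse left out. The difference from wild type went from 0 to 49 and 92 by DESeq2 and to 0 to 10 with a mouse left out, from the Hsf1-/- response from 30 to 99 and 111 by DESeq2, 9 on those groups alone and 25 to 51, and from the heat shock response from 224 to 442 and 339 by DESeq2, 23 on those groups alone and 98 to 454, lowest without control replicate 2. The 20 chaperone rises became 5 on the groups alone and 13 to 19 with a mouse left out. The 13 glucocorticoid falls became 20 by DESeq2 on the groups compared, 0 on the groups alone and 1 to 12 with a mouse left out. With library size scaling the split was 56 higher and 154 lower. The replicate numbers share only a number (correlation of the mice's deviations −0.0977), and the replicate block changed no count by over 1.5 times. Genes near 0 turned sign with a mouse left out, over ranges of −0.14 to 0.02 for Hsf1, −0.44 to 0.95 for Cryab, −0.07 to 0.06 for Tcp1, −0.1 to 0.4 for Trib3 and −0.64 to 0.39 for Slc7a1. The cause was not tested. With 2 mice a group, small changes were not detectable.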
